A study of Homo sapiens with 12 samples.

Results

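CCN1, CCN2, ANKRD1, AMOTL2, AXL, THBS1, TGFB2, YAP1 and SMAD7, 9 genes tied to YAP or to transforming growth factor beta (TGF-beta) signalling, were followed in 12 RNA-seq libraries of cell lines treated with quinacrine (QC), an antimalarial acridine, or with vehicle. The study describes the lines as ovarian cancer lines. The 9 genes were chosen by name, with earlier results of these data known. They were found by Ensembl ID among 60669 gene IDs in the table of read counts. The lines were the sensitive HeyA8, SK-OV-3 (SKOV3 in the labels) and OV2008 and their resistant partners HeyA8-MDR (HeyA8_MDR), SK-OV-3-TR (SKOV3_TR) and C13 (OV2008_C13), which the study describes as resistant to carboplatin, to taxol and to cisplatin. Each line was exposed to 8 µM QC or to vehicle for 6 h and gave 1 library per treatment, so each of the 4 groups held 3 lines. The HeyA8 lines were grown in DMEM and the other lines in RPMI, so medium and family cannot be told apart. Each partner is a single selected line, and no line had a second library, so the ratio within a line has no error of its own and p-values measure the spread between lines. The QC fit over all lines and the tests among families count the partners of a pair as separate replicates. The partners are isogenic and so not fully independent.

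YAP, the product of YAP1, is a co-activator held in the cytoplasm by the kinases of the Hippo pathway. In the nucleus it binds TEAD factors and switches on genes such as CCN1, CCN2, ANKRD1 and AMOTL2. TGF-beta ligands such as TGFB2 bind a pair of receptor kinases that phosphorylate SMAD proteins, and SMAD7 is an inhibitor that the same signal induces. The routes meet at shared targets, among them CCN2 and THBS1, and both are studied in ovarian cancer for adhesion, invasion and drug resistance.

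All values are of mRNA. Levels are CPM, library counts scaled to a common total by the trimmed mean of M-values, from 17782556 to 30585059 counts per library. Over all genes, the QC library of HeyA8 stood apart. For the 32 genes at least 8-fold higher in HeyA8-MDR than in HeyA8 it lay a median 38.4% of the way to HeyA8-MDR, and for the 75 genes at least 8-fold lower 51.3%, against -4.40% to 31.3% in the other lines. Of the 9 genes, the 4 that differed by 2-fold or more between these lines in vehicle lay 94.5% (CCN1), 75.1% (SMAD7), 16.3% (THBS1) and -136% (TGFB2) of the way. The part of this in the results was not tested, and results that rest on HeyA8 are given with and without it. KRT8, KRT18, EPCAM and CDH1, which mark epithelium, summed to 392 to 6657 CPM, but the members differed. In vehicle-treated HeyA8 and HeyA8-MDR, EPCAM stood at 2.93 and 0.052 CPM and CDH1 at 0.222 and 0 CPM. KRT8 stood at 812.5 and 1003 CPM there. EPCAM was 52.4 CPM in SK-OV-3, 3.07 in SK-OV-3-TR, 219 in OV2008 and 205 in C13. The OV2008 and C13 libraries held the squamous markers TP63, KRT5 and KRT14 at a sum of 2696 to 11620 CPM, against at most 49.6 CPM in the other lines. The ovarian markers PAX8, WT1 and MUC16 summed to 13.1 to 28.6 CPM there and to 244 to 484 CPM in the others. WT1 reached at most 4.79 CPM and MUC16 at most 10.9 CPM in any library, so the higher sums were mostly PAX8. In OV2008 and C13 these markers do not bear out the ovarian origin that the study gives, which was not tested. Leukocyte markers summed to at most 0.665 CPM and fibroblast markers to at most 6.41 CPM, while 2 endothelial markers reached 177 CPM, from CDH5 in the HeyA8 lines. In such bulk libraries, fewer cells with a transcript and less of it per cell cannot be told apart.

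Upstream sequences were read from RefSeq promoters on GRCh38.p14, which held 8 of the 9 genes (all but CCN1), and searched over the 250 bases before the start of the gene on both strands. The windows of the 5 genes with a TEAD motif are shown because TEAD factors, which YAP binds in the nucleus, recognize this motif. Each reads 5′ to 3′ on the strand of its gene, with the motif CATTCC, or its reverse complement GGAATG, in capitals.
CCN2, chr6:131951450-131951553, minus strand: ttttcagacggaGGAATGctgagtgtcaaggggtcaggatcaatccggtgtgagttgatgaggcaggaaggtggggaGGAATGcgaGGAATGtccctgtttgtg
ANKRD1, chr10:90921198-90921319, minus strand: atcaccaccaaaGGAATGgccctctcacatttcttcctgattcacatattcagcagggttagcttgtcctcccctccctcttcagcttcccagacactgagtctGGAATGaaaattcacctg
THBS1, chr15:39581021-39581050, plus strand: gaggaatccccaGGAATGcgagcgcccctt
TGFB2, chr1:218345139-218345168, plus strand: tgtcagggcgcaCATTCCacctccttcctc
YAP1, chr11:102110273-102110302, plus strand: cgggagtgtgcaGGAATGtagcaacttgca

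CCN2 held 3 matches, at 169, 104 and 95 bases before its start, and 0.0826% of all 35116 promoters held 3 or more. ANKRD1 held 2, at 220 and 128 bases, and THBS1, TGFB2 and YAP1 held 1 each. At least 1 match was present in 5 of the 8 promoters and in 11.9% of all promoters. AMOTL2, AXL and SMAD7 held none in this window. The SMAD motif CAGAC was present in 7 of the 8, all but YAP1, and in 38% of all promoters. ANKRD1 alone held the AP-1 motif TGANTCA (1 of 8, against 6.57% of all promoters), and none of the 8 held a CArG box (1.16% of all). In ANKRD1, 1 SMAD match shared a base with a TEAD match. A match describes letters in this window and not binding in these cells.

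**Figure D1:**
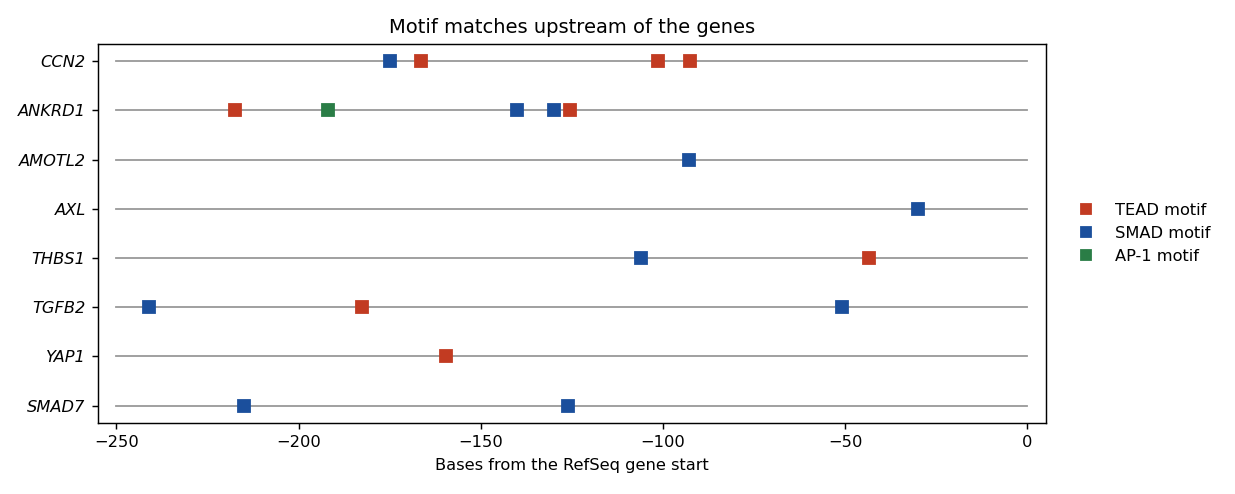
Positions of motif matches in the 250 bases upstream of 8 genes, in bases from the RefSeq gene start on the horizontal axis. Squares mark TEAD (CATTCC), SMAD (CAGAC) and AP-1 (TGANTCA) matches on either strand. CCN2 has 3 TEAD matches, ANKRD1 has 2, and AMOTL2, AXL and SMAD7 have none.

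The first comparison was of levels between lines without drug. YAP1 itself was nearly level across the lines, while its targets were not. In vehicle, YAP1 (chromosome 11: 102110447-102233424) stood at 244 CPM in HeyA8, 208 in HeyA8-MDR, 225 in SK-OV-3, 182 in SK-OV-3-TR, 174 in OV2008 and 108 in C13, a range of 2.25-fold. CCN2 (connective tissue growth factor, CTGF; chromosome 6: 131948176-131951372) ranged 345-fold, at 430, 520, 1.51, 236, 1.68 and 7.02 CPM in the same order. CCN1 (CYR61, a matricellular protein of the same family; chromosome 1: 85580761-85583950) ranged 291-fold, at 1568, 612, 5.40, 284, 91.2 and 241 CPM. For both CCN genes the HeyA8 lines were the highest and SK-OV-3 the lowest. The low CCN2 values rest on 36 counts in SK-OV-3 and 30 in OV2008.

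ANKRD1, a nuclear ankyrin-repeat protein (chromosome 10: 90912096-90921087), was weakly expressed outside C13. Its vehicle levels were 5.23 CPM in HeyA8, 39.2 in C13, 12.3 in SK-OV-3-TR, 3.84 in HeyA8-MDR and 3.58 in OV2008. Both SK-OV-3 libraries had 0 counts, which allows levels of up to 0.126 CPM in vehicle and 0.136 CPM with QC. AMOTL2, a junction scaffold of the angiomotin family that binds and restrains YAP (chromosome 3: 134355345-134375417), stood at 652, 454, 44.1, 364, 162 and 185 CPM in the order above. AXL, a receptor tyrosine kinase (chromosome 19: 41219223-41261766), stood at 1463, 1810, 119, 382, 57.8 and 216 CPM. The HeyA8 lines were above all other lines for AMOTL2 and AXL.

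Of the TGF-beta genes, THBS1 (thrombospondin 1, which can activate latent TGF-beta; chromosome 15: 39581079-39599466) was highest in OV2008, at 1432 CPM, followed by 905 in SK-OV-3-TR, 812 in C13, 655 in HeyA8, 57.2 in SK-OV-3 and 50.3 in HeyA8-MDR. TGFB2, the ligand (chromosome 1: 218345336-218444619), was low in all lines. Its vehicle levels were 19.9 CPM in C13, 11.6 in SK-OV-3-TR, 7.90 in OV2008, 3.86 in HeyA8, 1.45 in HeyA8-MDR and 0.878 in SK-OV-3, the last of these from 21 counts. SMAD7, the inhibitor (chromosome 18: 48919853-48950965), stood at 88.7 CPM in SK-OV-3-TR, 48.1 in SK-OV-3, 39.3 in HeyA8, 26.6 in OV2008, 16.3 in HeyA8-MDR and 12.2 in C13. With 1 library per line, no neighbours in any of these orders can be separated by replicate error. Per kilobase of exon, the highest vehicle level among the 9 genes was that of CCN1 in HeyA8 (424 CPM per kb), AXL in HeyA8-MDR (353), YAP1 in SK-OV-3 (35.7), CCN2 in its partner SK-OV-3-TR (101), and THBS1 in OV2008 (156) and C13 (88.6). YAP1 therefore ranked first in the line where CCN1, CCN2 and ANKRD1 were lowest.

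**Figure D2:**
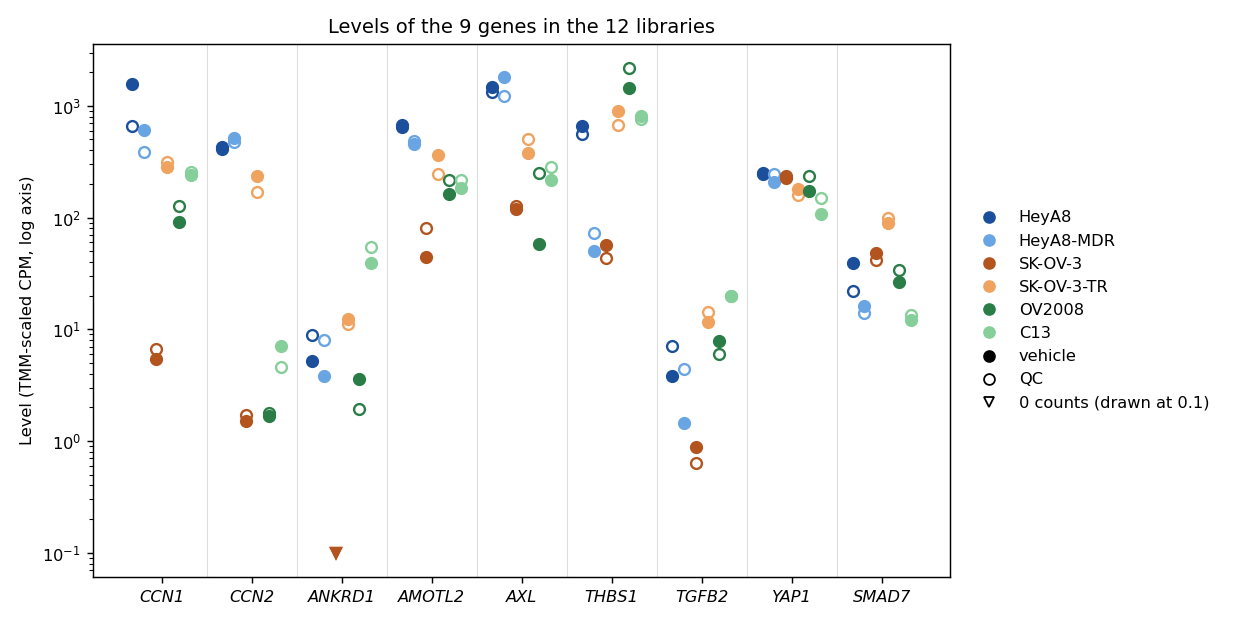
Levels of the 9 genes in the 12 libraries, in CPM on a log axis, with each line in its own color, vehicle filled and QC open. YAP1 lies between 108 and 250 CPM in every library, whereas CCN2 runs from 1.51 to 520 CPM, and the triangle for ANKRD1 marks the SK-OV-3 libraries with 0 counts.

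In vehicle, each of the HeyA8, SK-OV-3 and OV2008 families was taken as a group of 2 lines. The lines of a family are isogenic, so the error in this test is the spread within isogenic pairs. An edgeR quasi-likelihood F test called 1 of the 9 genes different among families. This was AXL, with an adjusted p of 0.0264, where the HeyA8 lines (1463 and 1810 CPM) did not overlap the other 4 lines (57.8 to 382 CPM). Over all genes 23.1% were called. At an unadjusted p under 0.05 the count was 3 of 9 (AXL, CCN2 with an unadjusted p = 0.0306 and SMAD7 with an unadjusted p = 0.0446, edgeR), against 41.1% of all genes. The AXL call was lost without any one line of the HeyA8 or OV2008 family (adjusted p of 0.082 without HeyA8 and up to 0.112 without HeyA8-MDR, edgeR), fits in which 4.76% to 9% of all genes were called. Without SK-OV-3-TR, 6 of the 9 genes were called, and without SK-OV-3, 4 were, against 23.3% of all genes in each fit.

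The second comparison asked how each resistant line differed from its own sensitive partner before treatment. In the SK-OV-3 family, 6 of the 9 genes were at least 8-fold higher in the taxol-resistant line. CCN1 was 52.6-fold higher (129 counts in SK-OV-3 and 9610 in SK-OV-3-TR), CCN2 was 157-fold higher, and ANKRD1 was at least 97.9-fold higher, taken against 3 counts in the SK-OV-3 library. THBS1 was 15.8-fold, TGFB2 13.2-fold and AMOTL2 8.25-fold higher, while AXL was 3.21-fold and SMAD7 1.85-fold higher. YAP1 stood at a ratio of 0.806. Of all genes, 3.62% were at least 8-fold higher in SK-OV-3-TR and 5.37% passed that fold in either direction.

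The cisplatin-resistant C13 exceeded OV2008 by 2-fold or more in 5 of the 9 genes, where 11.6% of all genes did so. ANKRD1 was 10.9-fold, CCN2 4.18-fold, AXL 3.75-fold, CCN1 2.64-fold and TGFB2 2.52-fold higher in C13. SMAD7 went the other way at a ratio of 0.457, and YAP1 stood at 0.623. HeyA8-MDR showed no gene of the 9 at 2-fold or more above HeyA8, against 14.8% of all genes. There, THBS1 was 13.01-fold, TGFB2 2.65-fold and CCN1 2.56-fold lower, SMAD7 stood at a ratio of 0.414, and AXL stood at 1.24. Each of these ratios compares 2 libraries and carries no replicate check.

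**Figure D3:**
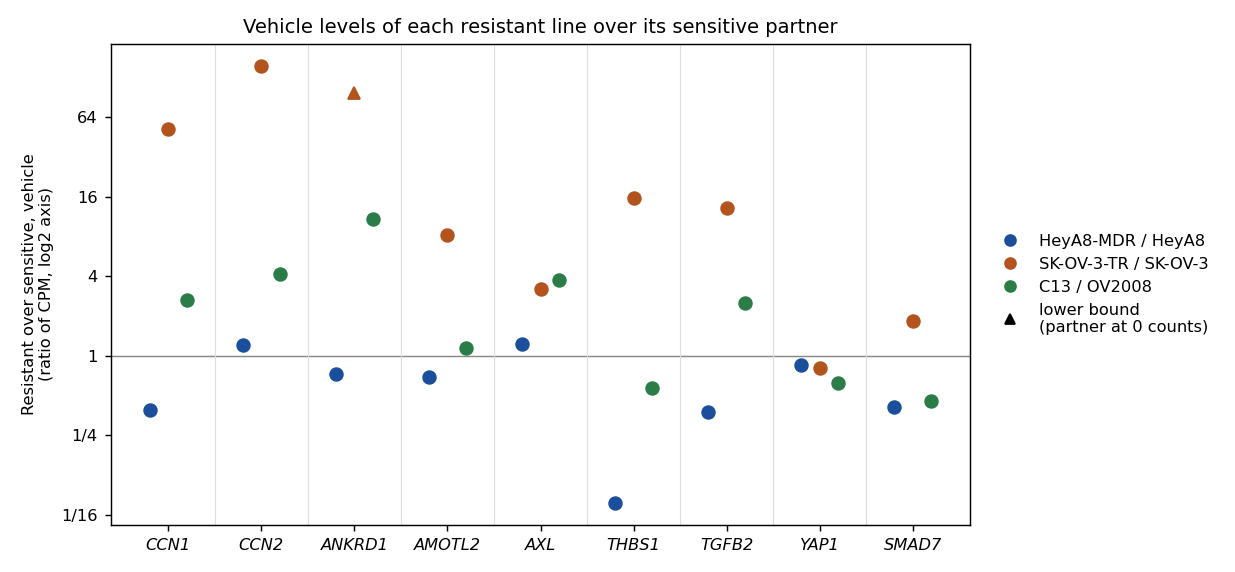
Vehicle level of each resistant line over its sensitive partner for the 9 genes, as a ratio of CPM on a log2 axis, with 1 point per family and a triangle for a lower bound. SK-OV-3-TR is above SK-OV-3 for 8 genes, by up to 157-fold for CCN2, while YAP1 lies between 0.623 and 0.851 in the 3 families.

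The fit over the 3 pairs called none of the 9 genes. AXL and CCN2 were higher and YAP1 lower in the resistant line of all 3 pairs, and the other 6 genes differed in direction between pairs. The share of all genes that kept their direction in all 3 pairs was not computed, so this count has no background. With edgeR and family as a term, 0 of 9 had an adjusted p under 0.05 and 1 of 9 an unadjusted one (0% and 3.65% of all genes). That gene was AXL, with a log2 difference of 1.31 (SE 0.39, n = 3 pairs, unadjusted p = 0.0163, adjusted p = 0.995, edgeR). DESeq2 called 0 of 9 by adjusted p and 3 of 9 by unadjusted p, against 0.251% and 6.08% of all genes with that tool. The largest log2 differences were those of ANKRD1 (3.33, SE 1.87) and CCN2 (2.75, SE 1.47), which fell to 1.49 and 1.07 without SK-OV-3. CCN1 stood at 1.68 (SE 1.48) with all pairs, and at -0.0062 without SK-OV-3.

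The third comparison was QC against vehicle. Over all 6 lines, none of the 9 genes moved in the same direction in every line, and none passed the test. An edgeR fit with the cell line as a block gave 0 of 9 by adjusted p (0% of all genes) and 0 of 9 at an unadjusted p under 0.05 (15.2% of all genes), and DESeq2 likewise gave 0 and 0. A shared direction in all 6 lines was seen in 8.73% of all genes. Log2 fold changes of the 9 lay between -0.20 (CCN2, SE 0.13) and 0.36 (AXL, SE 0.27), with a median of 0.17. Without HeyA8, CCN1 went from -0.15 to 0.064 and SMAD7 from -0.096 to 0.052. ANKRD1 went from 0.28 to 0.16 and TGFB2 from 0.33 to 0.20, and AXL from 0.36 to 0.47.

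AXL showed the widest response of the 9, and it was in 1 line. In OV2008 it went from 57.8 CPM in vehicle to 252 CPM with QC (1031 and 5713 counts), a 4.36-fold ratio that left it above the vehicle level of the partner C13, 216 CPM. C13 itself stood at 282 CPM with QC. QC levels were 508 CPM in SK-OV-3-TR, 128 in SK-OV-3, 1325 in HeyA8 and 1238 in HeyA8-MDR. AXL was thus higher with QC in 4 lines and lower in both HeyA8 lines, with log2 ratios from -0.55 in HeyA8-MDR to 2.12 in OV2008.

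CCN1 was lower with QC in both HeyA8 lines and higher in the other 4. Its QC levels were 665 CPM in HeyA8, 388 in HeyA8-MDR, 6.72 in SK-OV-3, 316 in SK-OV-3-TR, 126 in OV2008 and 254 in C13. The log2 ratios were -1.24 in HeyA8 and -0.66 in HeyA8-MDR, against 0.079 to 0.47 in the others. CCN2 stood close to its vehicle level in HeyA8 and HeyA8-MDR (415 and 479 CPM with QC) and in SK-OV-3 and OV2008 (1.73 and 1.76 CPM). C13 was lower (4.64 CPM with QC, log2 ratio -0.59), as was SK-OV-3-TR (170 CPM, -0.48). The CCN genes therefore had their lowest ratios in different lines.

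ANKRD1 stood at 54.2 CPM with QC in C13, 11.1 in SK-OV-3-TR, 8.88 in HeyA8, 7.94 in HeyA8-MDR and 1.94 in OV2008. The ratio was highest in the HeyA8 lines (log2 0.75 and 1.03), the lines where that of CCN1 was lowest, and lowest in OV2008 (-0.86). AMOTL2 stood at 678, 481, 80.9, 246, 218 and 216 CPM with QC in HeyA8, HeyA8-MDR, SK-OV-3, SK-OV-3-TR, OV2008 and C13. It was higher in 5 lines, by most in SK-OV-3 (log2 0.87), and lower in SK-OV-3-TR (-0.57). YAP1 was likewise higher in 5 lines and lower in SK-OV-3-TR, with QC levels of 250, 244, 234, 158, 237 and 150 CPM in the same order and log2 ratios of -0.20 to 0.47.

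TGFB2 was higher with QC in both HeyA8 lines, at 7.13 CPM in HeyA8 and 4.38 in HeyA8-MDR (log2 0.87 and 1.54). It was also higher in SK-OV-3-TR (14.3 CPM), lower in SK-OV-3 (0.636) and OV2008 (6.00), and level in C13 (19.9). THBS1 stood at 2173 CPM in OV2008 and 72.5 in HeyA8-MDR, both above vehicle, and at 556 in HeyA8, 757 in C13, 43.4 in SK-OV-3 and 677 in SK-OV-3-TR, all below it. SMAD7 was lower in both HeyA8 lines and SK-OV-3 and higher in the other 3. Its levels with QC were 22 CPM in HeyA8, 13.98 in HeyA8-MDR, 42.0 in SK-OV-3, 99.8 in SK-OV-3-TR, 34.0 in OV2008 and 13.4 in C13.

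**Figure D4:**
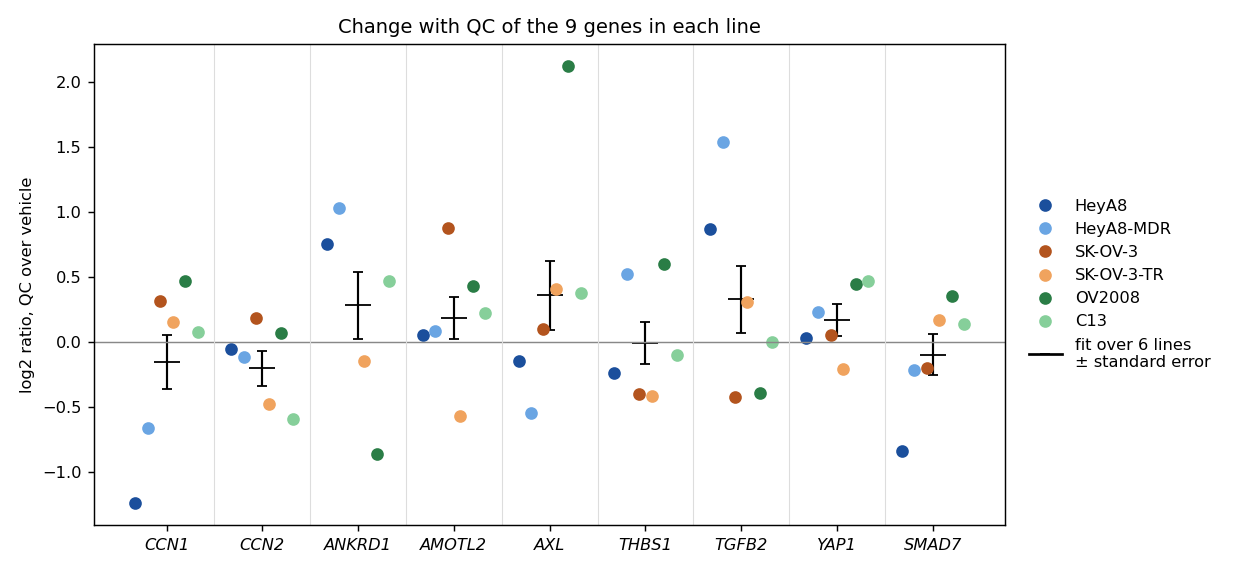
Log2 ratio of QC over vehicle for the 9 genes, 1 point per line, with the fitted log2 fold change over the 6 lines as a black bar ± its standard error. AXL in OV2008 (2.12) and TGFB2 in HeyA8-MDR (1.54) are the highest points, CCN1 in HeyA8 (-1.24) is the lowest, and no gene has all its lines on one side of 0.

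Changes of 2-fold or more with QC were few among the 9, with 1 gene in HeyA8 (CCN1; 17.1% of all genes), 2 in HeyA8-MDR (TGFB2 and ANKRD1; 16.6%), 1 in OV2008 (AXL; 17.98%) and 0 in SK-OV-3 (8.26%), SK-OV-3-TR (9.37%) and C13 (11.4%). OV2008 had the most genes above vehicle, 7 of 9 with a median log2 ratio of 0.43 (0 over all genes). In SK-OV-3-TR 4 of 9 were above, with a median of -0.15 (-0.0047 over all genes). The share of all genes above vehicle in each line was not computed.

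In the sensitive lines alone, 0 of 9 genes passed by adjusted p and 0 by unadjusted p with edgeR or DESeq2, against 0% and 6.59% of all genes with edgeR. The highest log2 fold change there was that of AXL, 0.66 (SE 0.38, n = 3 lines), which was -0.019 without OV2008 and 1.11 without HeyA8. Without HeyA8, CCN1 went from -0.17 to 0.40, ANKRD1 from 0.013 to -0.88 and TGFB2 from 0.073 to -0.42, and 2 genes had an unadjusted p under 0.05 (4.06% of all genes). In the resistant lines, 0 of 9 passed by adjusted p (0% of all genes) and 1 of 9 by unadjusted p (6.03%) with edgeR, and 0 by either with DESeq2. This was CCN2, lower in 3 of 3 lines with a log2 fold change of -0.39 (SE 0.18, unadjusted p = 0.0489, adjusted p = 0.818, edgeR). It passed that threshold in 1 of the 6 fits that left out a line, the one without HeyA8-MDR.

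The difference between the resistant and the sensitive response was tested directly, and 0 of 9 genes passed by adjusted or unadjusted p (0% and 1.16% of all genes, edgeR). DESeq2 also gave 0 and 0. The smallest p belonged to AMOTL2, with a difference of -0.54 (SE 0.31, unadjusted p = 0.106), followed by CCN2 at -0.44 (SE 0.27, unadjusted p = 0.131, edgeR). In the edgeR fit without HeyA8, 2 of 9 genes had an unadjusted p under 0.05, where 1.28% of all genes did.

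The response was also compared among the 3 families, a test added after the ratios by line had been seen. The replicates of each family were again isogenic partners. With edgeR, 0 of 9 genes passed by adjusted p (0% of all genes) and 3 of 9 by unadjusted p (14% of all genes). These were CCN1 (unadjusted p = 0.00186, adjusted p = 0.168), AXL (unadjusted p = 0.0228, adjusted p = 0.296) and TGFB2 (unadjusted p = 0.0236, adjusted p = 0.297). DESeq2 called CCN1 with an adjusted p of 0.00253, where it called 4.41% of all genes. In edgeR it was called without HeyA8-MDR (adjusted p = 0.0246; 3.78% of all genes) but not without HeyA8 (0.193). Without HeyA8 the adjusted p of AXL was 0.15 and that of TGFB2 0.168 (edgeR).

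The remaining genes of the pathways were described from 4 lists, chosen with earlier results of these data known. Shares of all genes beside them describe the lists and are not an independent check. Of 19 further YAP/TAZ-TEAD targets, 4 had an unadjusted p under 0.05 over all lines with QC (edgeR), 3 higher and 1 lower, and none an adjusted one. For comparison, 7.99% of all genes passed as higher and 7.18% as lower at that threshold. ARHGAP29 had a log2 fold change of 0.67 (SE 0.16, adjusted p = 0.153, edgeR) and the kinase NUAK2 0.63 (SE 0.22, adjusted p = 0.209). CCDC80, an extracellular matrix protein, was at -0.69 (SE 0.20, adjusted p = 0.177). That mean joined -1.28 in the sensitive lines (SE 0.17, adjusted p = 0.0622, edgeR) and -0.10 in the resistant lines (SE 0.17). The difference between them was 1.18 (SE 0.24, unadjusted p = 0.00041, adjusted p = 0.9998, edgeR). The median of the list was 0.095.

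Of 17 Hippo pathway genes, 2 had an unadjusted p under 0.05 (edgeR), against 15.2% of all genes. STK3, a Hippo kinase, was higher in 6 of 6 lines with a log2 fold change of 0.65 (SE 0.14, adjusted p = 0.141, edgeR), and TEAD4, a DNA-binding partner of YAP, was lower in 6 of 6 at -0.36 (SE 0.13, adjusted p = 0.213). VGLL4, which competes with YAP for TEAD, stood at -0.28 (SE 0.13, adjusted p = 0.35). AMOT was found mainly in SK-OV-3-TR (885 counts in vehicle and 373 with QC, against at most 20 in any other library), a gene singled out after its values were seen.

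Among 20 TGF-beta ligands, receptors and SMADs, 5 had an unadjusted p under 0.05 (edgeR), 2 higher and 3 lower, against 7.99% and 7.18% of all genes. The co-repressor SKI (-0.46, SE 0.14, adjusted p = 0.185) and the co-receptor ENG (-0.50, SE 0.16, adjusted p = 0.187) were lower in 6 of 6 lines. The pseudoreceptor BAMBI was at 0.47 (SE 0.17, adjusted p = 0.227, edgeR). The type II receptor TGFBR2 was singled out after its values were seen. It had 0 counts in all 4 libraries of OV2008 and C13, which allows up to 0.168 CPM, and 98.4 to 714 CPM in the 8 other libraries. THBS1 had its highest vehicle level in OV2008 and TGFB2 in C13, and a link to TGFBR2 was not tested.

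Of 24 further TGF-beta targets, 9 had an unadjusted p under 0.05 (edgeR), 7 higher and 2 lower, against 7.99% and 7.18% of all genes. Fold changes were positive in 19, with a median of 0.37. Over all genes tested the median was 0.0001, and the share with a positive change was not computed. KLF10, an early-response transcription factor, was higher in 6 of 6 lines (0.68, SE 0.16, adjusted p = 0.149, edgeR), and ACTA2, smooth muscle actin, in 5 of 6 (1.51, SE 0.39, adjusted p = 0.157). The log2 ratios of ACTA2 were uneven, from -0.0088 to 3.39 (adjusted p = 0.0793 among families, edgeR). Outside the HeyA8 lines its vehicle counts were low, at 51 in SK-OV-3, 56 in SK-OV-3-TR, 12 in OV2008 and 64 in C13. ID1, an inhibitor of differentiation factors, was lower in 5 of 6 (-0.62, SE 0.19, adjusted p = 0.177). Without HeyA8 the 4 lists held 4, 3, 6 and 10 such genes, in the order given, against 12% of all genes. The first list held 7 without SK-OV-3-TR (14.8% of all genes), and the third held 2 without OV2008 (10.1%) and 3 without HeyA8-MDR (11.1%) or C13 (12.5%). Without a filter on low counts the YAP/TAZ-TEAD targets held 8 and the TGF-beta targets 14 (9.19% of all genes). Without the cell line block the lists held 0, 1, 0 and 0 (0.625% of all genes). In HeyA8 PMEPA1 went from 2.88 to 58.7 CPM, beside 74.2 CPM in vehicle-treated HeyA8-MDR, and SMURF1 from 48.5 to 200 CPM, beside 294 CPM. Both were singled out for the way the HeyA8 library stood apart.

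**Figure D5:**
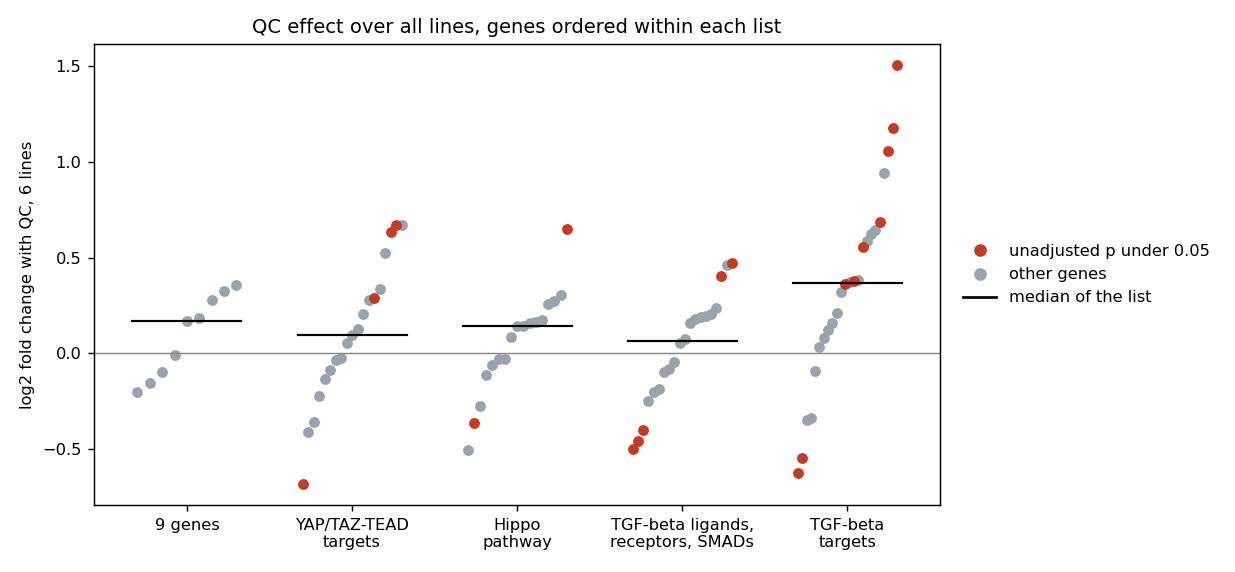
Log2 fold change with QC over the 6 lines for the 9 genes and the 4 pathway lists, 1 point per gene in order of its value, with the list median as a black bar and genes with an unadjusted p under 0.05 in red. None of the 9 genes is red, and the TGF-beta targets have the highest median, 0.37.

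Between resistant and sensitive lines in vehicle, 5 genes of the 4 lists had an unadjusted p under 0.05 (edgeR), 4 higher and 1 lower, where 1.94% of all genes passed as higher and 1.71% as lower. The YAP targets FJX1 (log2 difference 2.18, SE 0.79) and GADD45A (1.60, SE 0.63), the latent TGF-beta binding protein LTBP3 (0.9965, SE 0.30) and the collagen COL4A1 (0.92, SE 0.35) were higher, and the Hippo kinase LATS1 (-0.76, SE 0.29) was lower. TAOK1 (-0.60, SE 0.27), LTBP1 (-0.99, SE 0.40) and SKIL (-0.87, SE 0.37) did not pass. The adjusted p of each of these 8 genes was 0.995 in edgeR. The families differed in vehicle by adjusted p (edgeR) in 10 of the 19 YAP/TAZ-TEAD targets, 5 of the 17 Hippo genes, 6 of the 20 TGF-beta pathway genes and 11 of the 24 TGF-beta targets, where 23.1% of all genes did.

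Across the 12 libraries, which share lines and so are not independent, the log2 level of CCN1 followed that of AMOTL2 (Pearson r = 0.944) and that of CCN2 followed AXL (0.911). These were the highest values among pairs of the 9 genes, and the lowest was YAP1 with TGFB2 (-0.666). YAP1 stood at -0.091 with CCN1, 0.23 with CCN2, -0.568 with ANKRD1 and 0.174 with AMOTL2. THBS1 stood at -0.108 with CCN2 and 0.416 with CCN1. The gene with the most similar pattern outside the 9 was MT2A for CCN1 (r = 0.968), DYSF for CCN2 (0.983), MVK for ANKRD1 (0.962), PRSS23 for AMOTL2 (0.959) and C10orf55 for AXL (0.980). It was an unnamed ID (ENSG00000250240) for THBS1 (0.940), CORO1A for TGFB2 (0.962), NCKAP5L for YAP1 (0.946) and PLEKHH2 for SMAD7 (0.962).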

How the data were processed

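PolyA RNA of 6 cell lines was sequenced with the TruSeq RNA kit. The deposited values are raw counts per gene, made by the authors without normalization. The methods name TopHat, hg19 and HTSeq, whereas the submitters' processing notes name STAR 2.7.3a, HTSeq 0.6.1p1 and GRCh38.p13, so the aligner and build are uncertain, and the strand setting is not given in the sources used here. Gene positions are those of RefSeq on GRCh38.p14. Of 60669 IDs, 58663 were paired with symbols.

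Tests were run with edgeR 4.0.16 under R 4.3.3 (quasi-likelihood test, Benjamini-Hochberg adjustment over all genes, threshold 0.05). filterByExpr (minimum count 10, minimum total 15) left 18720 genes, the 9 genes included. Vehicle and QC libraries of a line were paired by a cell line term, since both come from the same line (correlation of deviations 0.893 to 0.929 in the 6 lines). Line ratios used a prior count of 2. DESeq2 1.42.0, other scalings, no filter, no replicate block and leaving out each line were alternatives. The fit was tested on simulated data. Named list genes are the 3 with the smallest p for QC and the 2 for resistance in each list. The genes and lists were chosen with earlier results of these data known.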

Additional observations from a re-analysis of the deposited data

Results flagged for a closer look

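For 4 of the 9 genes, both lines of 1 family moved one way with QC and both lines of another family the opposite way. They were flagged for this difference between groups, which was then tested with an edgeR F test of the QC effect per family. The adjusted p was 0.168 for CCN1, 0.296 for AXL, 0.297 for TGFB2 and 0.372 for SMAD7, so none passed the threshold. Without HeyA8 it was 0.193 for CCN1, 0.15 for AXL, 0.168 for TGFB2 and 0.652 for SMAD7 (edgeR). In CCN1 the HeyA8 lines were lower with QC (log2 ratios -1.24 and -0.66) and the 4 other lines higher. In AXL the HeyA8 lines were lower and the 4 other lines higher. In TGFB2 the HeyA8 lines were higher, and OV2008 and C13 lower, although C13 only at a log2 ratio of -0.00083. In SMAD7 the HeyA8 lines were lower, and OV2008 and C13 higher. Opposite family directions of this kind occurred in 28.7% of the 18720 genes tested.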

How the results depend on the processing

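The data hold 1 library per line and treatment, so every test rests on differences between lines. In vehicle, CCN2 rests on 30 counts in OV2008, TGFB2 on 21 in SK-OV-3, and ANKRD1 has 0 there. Of 418 fitted values of the 9 genes under alternatives, 370 kept their direction and 48 reversed, 36 of these when a line was left out. All 159 line ratios under other scalings and prior counts moved by less than the spread between lines. The cause of the changes below was not tested.

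Without a filter on low counts (39590 genes), genes of the 9 with an unadjusted p under 0.05 (edgeR) numbered 1 for QC in all lines (9.19% of all genes). They numbered 2 in sensitive lines (4.84%), 0 in resistant lines (4.13%) and 2 for the difference in response (1.27%). Among families they numbered 6 for QC (9.34%) and 8 in vehicle (25.9%), and for resistance in vehicle 5 (4%). By adjusted p they numbered 2 among families for QC (2.43%), 7 among families in vehicle (18.7%) and 2 for resistance (0.344%). With DESeq2 they numbered 1, 2 and 0 by adjusted p (4.41%, 37% and 0.251%). Its unadjusted counts were 0 in resistant lines (5.84%) and 3 for resistance (6.08%). By unadjusted p, DESeq2 size factors in edgeR gave 0 in resistant lines (6.05%), and library size alone gave 6 among families for QC (14.4%). Without the replicate block, unadjusted counts were 0 in resistant lines (0.123%), 0 among families for QC (1.2%) and 0 for resistance (0.662%). Over all genes, adjusted calls with QC in all lines were 0 with edgeR, 518 with DESeq2 and 791 without a filter. For the response among families they were 0, 826 and 961, and for resistance 0, 47 and 136. Among families in vehicle they were 4328, 6933 and 7414.

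Leaving out each line in turn, unadjusted counts ran from 0 to 1 for QC in all lines, 0 to 2 in sensitive lines, 0 to 1 in resistant lines, 0 to 2 for the difference in response, 1 to 4 among families for QC, 1 to 7 among families in vehicle and 0 to 5 for resistance. Adjusted counts ran from 0 to 1 among families for QC and 0 to 6 among families in vehicle.

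Log2 values that reversed without the replicate block were AXL (-0.096) and THBS1 (0.071) for QC in all lines, CCN2 (-0.049) and THBS1 (0.37) in sensitive lines, AXL (-0.25) in resistant lines, and CCN1 (-0.55) and SMAD7 (0.039) for resistance. In sensitive lines ANKRD1 turned to -0.024 with DESeq2, and THBS1 to 0.0017 with library size alone and 0.0038 without a filter. In resistant lines THBS1 turned to 0.011 with DESeq2 and 0.011 with its size factors. Ranges over the lines left out that crossed 0 were, for QC in all lines, -0.28 to 0.064 for CCN1, -0.13 to 0.077 for THBS1 and -0.18 to 0.052 for SMAD7. In sensitive lines they were -0.52 to 0.40 for CCN1, -0.022 to 0.13 for CCN2, -0.88 to 0.76 for ANKRD1, -0.019 to 1.11 for AXL, -0.31 to 0.17 for THBS1, -0.42 to 0.38 for TGFB2 and -0.51 to 0.073 for SMAD7. In resistant lines they were -0.27 to 0.10 for CCN1, -0.25 to 0.17 for AMOTL2, -0.082 to 0.38 for AXL, -0.28 to 0.23 for THBS1, -0.00030 to 0.37 for YAP1 and -0.031 to 0.14 for SMAD7. For resistance in vehicle they were -0.0062 to 3.53 for CCN1, -0.19 to 1.62 for AMOTL2, -2.28 to 1.58 for THBS1 and -0.014 to 2.49 for TGFB2.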

Other observations

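CDKN2B, a cyclin-dependent kinase inhibitor gene among the TGF-beta targets, was singled out after its values were seen. It had 0 counts in the 8 libraries of the HeyA8 and SK-OV-3 families. It stood at 7.67 CPM in vehicle and 15.3 CPM with QC in OV2008, and at 14.95 and 33.4 CPM in C13, the lines in which TGFBR2 had 0 counts. A link between these genes was not tested.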
